A study of Mus musculus with 32 samples.

Results

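Mitochondrial protein import and folding was described through the genes for the TOM, SAM, TIM22 and TIM23 complexes, the import motor, the presequence peptidase and the matrix chaperonin, in 6 lists of differentially expressed genes from mouse heart and skeletal muscle. Genes were taken by symbol, as every Timm or Tomm symbol followed by a digit together with *Samm50*, *Mtx1*, *Mtx2*, *Pam16*, *Dnajc15*, *Dnajc19*, *Hspa9*, *Hspd1*, *Hspe1*, *Pmpca*, *Pmpcb*, *Grpel1*, *Grpel2* and *Chchd4*. This selection found 18 genes in 20 of the 10115 rows of the 6 lists, which held 6212 distinct symbols. In the mouse annotation (GENCODE vM21, GRCm38) the same rule matched 39 protein-coding genes, of which 21 were in no list, and 1 noncoding gene, *Tomm6os*, which was also in no list.

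The lists come from RNA-Seq of 32 samples, made to learn which transcripts depend on RIP140, the nuclear receptor corepressor that *Nrip1* encodes. All mice carried floxed *Nrip1* (Nrip1 f/f), and controls were Cre-negative littermates. In strNrip1-/- mice (labelled MCK-RIP140KO), Cre was driven by the muscle creatine kinase promoter, which is active in heart and skeletal muscle. Heart, gastrocnemius and soleus of this line were compared with controls, with 3 samples in each group. The hearts and gastrocnemius muscles came from male mice of 8 weeks, and no age for soleus is given in the sources used here. The floxed mice were on a C57BL/6J background and the MCK-Cre mice on C57BL/6NJ, and *Nnt*, which differs between these substrains, was listed as higher in all 3 tissues (log2 fold change 0.81 for heart, 0.95 for gastrocnemius and 0.96 for soleus). *Nnt* was also listed within the *Nkx2-5*-Cre line, whose mice were all on a C57BL/6J background. The symbol has 2 rows in each of those lists, at 1.24 and 0.30 in csNrip1-/- against control hearts after TAC/MI, and at -0.86 and -0.31 for TAC/MI against sham surgery in control hearts. In csNrip1-/- mice (labelled Nkx2.5-RIP140KO), Cre was driven by the *Nkx2-5* promoter, which is active in the developing heart. Male mice of this line had sham surgery or transverse aortic constriction with a small apical myocardial infarction (TAC/MI) at 8 weeks, and the hearts were taken 4 weeks later, with the apex removed from all of them before analysis. This line gave 4 control sham, 3 csNrip1-/- sham, 3 control TAC/MI and 4 csNrip1-/- TAC/MI hearts. The lists compare csNrip1-/- with control hearts after sham surgery and after TAC/MI, and TAC/MI with sham surgery in control hearts.

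Most mitochondrial proteins are made in the cytosol and imported as unfolded precursors. They enter through the TOM complex of the outer membrane. Barrel-shaped outer membrane proteins are then inserted by the SAM complex, carrier proteins are passed by the small TIM chaperones to the TIM22 complex of the inner membrane, and proteins with a presequence pass through the TIM23 complex. The import motor, built around the Hsp70 chaperone mortalin, pulls the chain into the matrix, where the processing peptidase removes the presequence and the Hsp60 and Hsp10 chaperonin helps it fold. Heart and oxidative muscle are rich in mitochondria and depend on this route for their respiratory chain enzymes.

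Each list gives 2 values per gene, a shrunken log2 fold change and the FDR, which is the p-value adjusted over genes in the authors' DESeq2 fit. The lists hold no values per sample, no standard errors and no depth, so the spread between replicates enters only through the FDR. Every listed gene had an FDR below 0.05 and a change of at least 1.2-fold (0.26 on the log2 scale). For a gene that is not listed, failing a criterion and not having been tested cannot be told apart. The labels do not name the animal behind each sample, so these FDR values measure the spread between samples. Because the number of genes tested is not in the lists, shares are given of the 21924 annotated protein-coding genes, which include genes silent in these tissues. *Nrip1* itself was not listed in the 3 strNrip1-/- tissues. It was listed as higher in the hearts labelled csNrip1-/-, by 1.41 on the log2 scale after sham surgery (FDR = 9.83e-13) and by 0.86 after TAC/MI (FDR = 6.85e-06). This direction of the transcript is opposite to the label, so these groups are called hearts labelled csNrip1-/- below. The paper assessed RIP140 protein in hearts of both lines by immunoblot. Its loxP sites flank the exon that holds the coding sequence, and other exons remain. The deposited values sum the reads of all transcripts of a gene, so reads from the deleted exon cannot be told apart from others.

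Import and folding genes were listed in 3 of the 6 comparisons, and none was listed in strNrip1-/- heart or soleus or in TAC/MI hearts labelled csNrip1-/-. In strNrip1-/- gastrocnemius, 6 of 39 were higher and 1 was lower, where 8.73% of all protein-coding genes were listed. In sham hearts labelled csNrip1-/-, 7 of 39 were lower and 0 were higher, where 9.23% were listed. After TAC/MI in control hearts, 5 of 39 were lower and 1 was higher, a number near the background of 15.1%. Of the 18 genes, 16 were in a single list, *Timm21* and *Mtx1* were in 2, and 0 were in 3 or more. Overlap between the lists was not counted over all genes. All 20 changes were small, between 0.29 and 0.55 in absolute log2 fold change, 14 of them under 0.4, and 0 reached 1.5-fold.

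**Figure D1:**
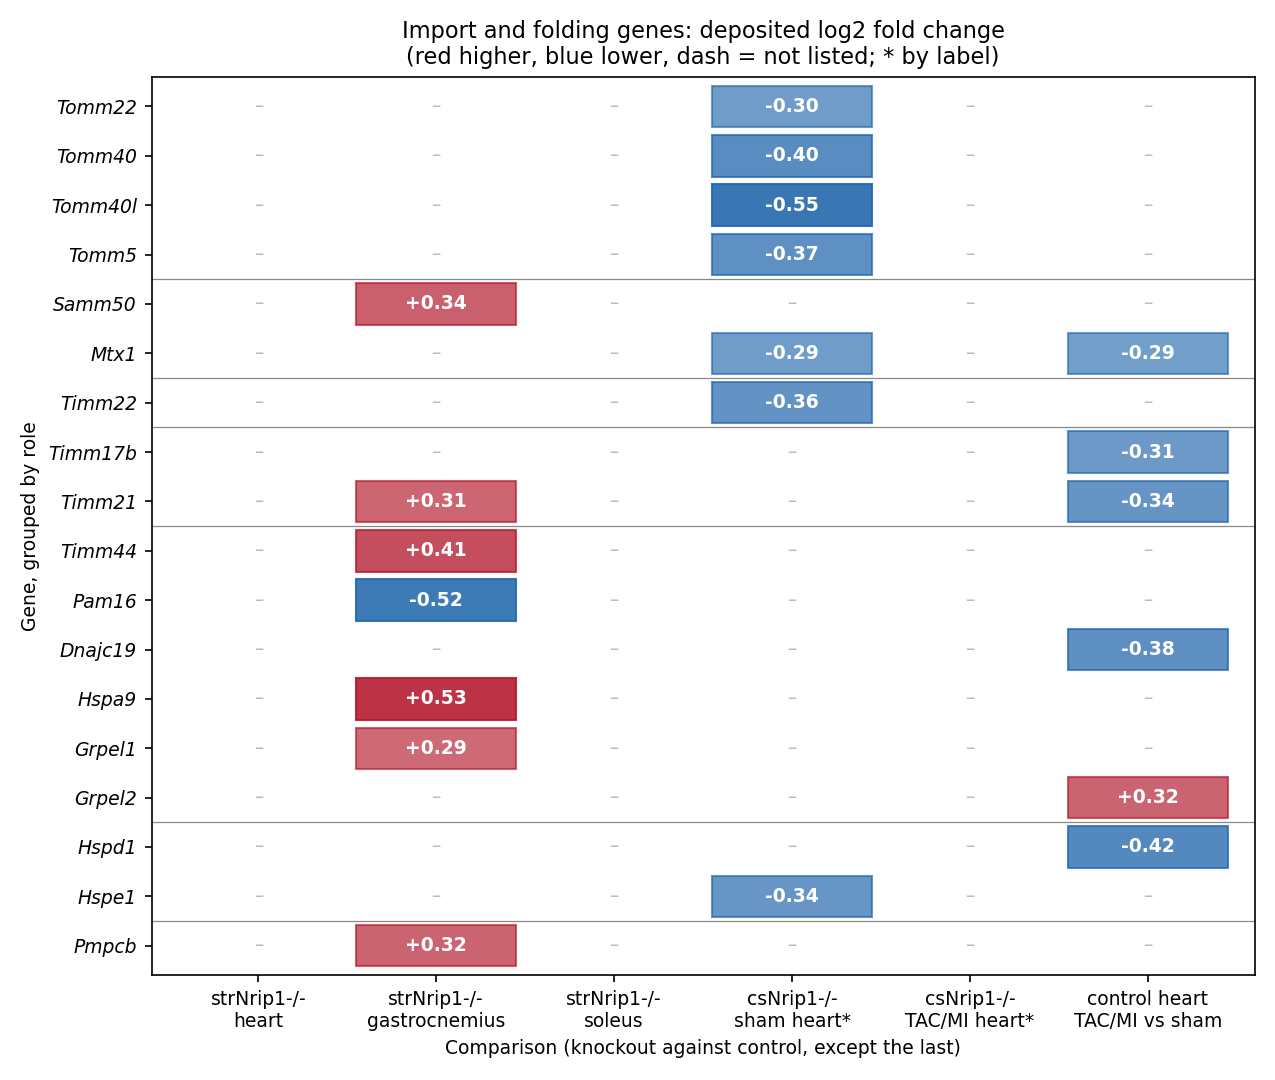
Deposited log2 fold change of the 18 listed genes (rows, grouped by role) in the 6 comparisons (columns), red for higher, blue for lower and a dash for a gene that was not listed; an asterisk marks groups named by their label. The 6 red cells of gastrocnemius lie between 0.29 and 0.53, and the 7 blue cells of the sham hearts lie between -0.55 and -0.29.

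Promoters are shown for listed genes that illustrate the letters found upstream and for *Tomm40*, which held none of the motifs searched. The windows are from RefSeq (GRCm38.p6), span 250 bases before to 50 after each annotated start, and were found for 34 of the 39 genes, 14 of them listed. *Hspa9*, *Timm21*, *Grpel2*, *Tomm40l* and *Tomm7* had no window. The printed runs lie outside all annotated GENCODE vM21 exons, except for the 30-base site of *Hspe1*. *Tomm22*, the central receptor of the TOM complex, is shown at chr15:79670618-79670860 (+ strand), *Grpel1*, the nucleotide exchange factor of the import motor, at chr5:36464935-36464997 (+ strand), and *Tomm40*, the channel of the TOM complex, at chr7:19715439-19715679 (- strand). The *Hspe1* site at chr1:55088056-55088085 (+ strand) lies between the RefSeq start of *Hspe1*, the Hsp10 gene, and a RefSeq start of *Hspd1*, the Hsp60 gene, in DNA that GENCODE annotates as a first exon of *Hspd1*. Capitals mark CCGGAAG on either strand, the core bound by GABPA (NRF-2), an Ets factor of nuclear genes for mitochondria, and in *Hspe1* also the heat shock element letters GAANNTTC, which overlap it.
Tomm22: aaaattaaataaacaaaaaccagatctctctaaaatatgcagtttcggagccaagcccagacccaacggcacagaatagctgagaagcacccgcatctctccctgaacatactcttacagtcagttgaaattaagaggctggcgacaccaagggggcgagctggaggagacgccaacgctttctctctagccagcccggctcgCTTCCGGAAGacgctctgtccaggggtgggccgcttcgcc
Grpel1: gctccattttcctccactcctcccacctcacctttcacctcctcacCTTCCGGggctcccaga
Hspe1: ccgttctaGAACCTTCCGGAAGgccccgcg
Tomm40: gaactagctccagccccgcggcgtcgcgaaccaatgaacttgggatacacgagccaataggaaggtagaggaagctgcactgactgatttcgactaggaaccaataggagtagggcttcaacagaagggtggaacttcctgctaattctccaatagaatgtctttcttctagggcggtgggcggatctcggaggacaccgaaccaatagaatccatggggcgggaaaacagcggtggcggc

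Each of the 7 motifs was searched on both strands of the windows. CCGGAAG was found in 17 of 37 windows of import and folding genes, that is in 16 of 34 genes, against 8.86% of all 32851 windows. The listed genes that held it were *Grpel1* and *Pmpcb*, higher in gastrocnemius, *Tomm22*, *Hspe1* and *Mtx1*, lower in sham hearts labelled csNrip1-/-, and *Hspd1*, lower with *Mtx1* after TAC/MI in control hearts. Genes with this motif thus stood among those listed as higher and among those listed as lower, and 10 of the 16 were in no list. Windows of the import and folding genes held a median of 20 CpG dinucleotides, against 7 over all windows, and a median GC content of 59.7% against 52.7%. AAGGTCA, a half-site of nuclear receptors such as the estrogen-related receptors, was found in 5 of 34 genes, the listed ones being *Hspd1*, *Hspe1* and *Timm44*, against 4.72% of all windows. Its longer form TCAAGGTCA, the estrogen-related receptor element, overlaps it and was found in *Timm8b* alone, against 0.423% of all windows. GCGCATGC (NRF1) was found in 2 genes, *Grpel1* and *Timm13*, against 2.71%, and AAGATGGC (YY1) in 2 genes, *Mtx1* and *Timm50*, against 2.75%. GAANNTTC was found in 3 genes, *Hspd1*, *Hspe1* and *Timm9*, against 7.86%. TGATGNAA, the composite element of ATF4 and CHOP, was in 0 of 34 genes, against 3.97%. A match describes letters in the window and does not show binding.

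**Figure D2:**
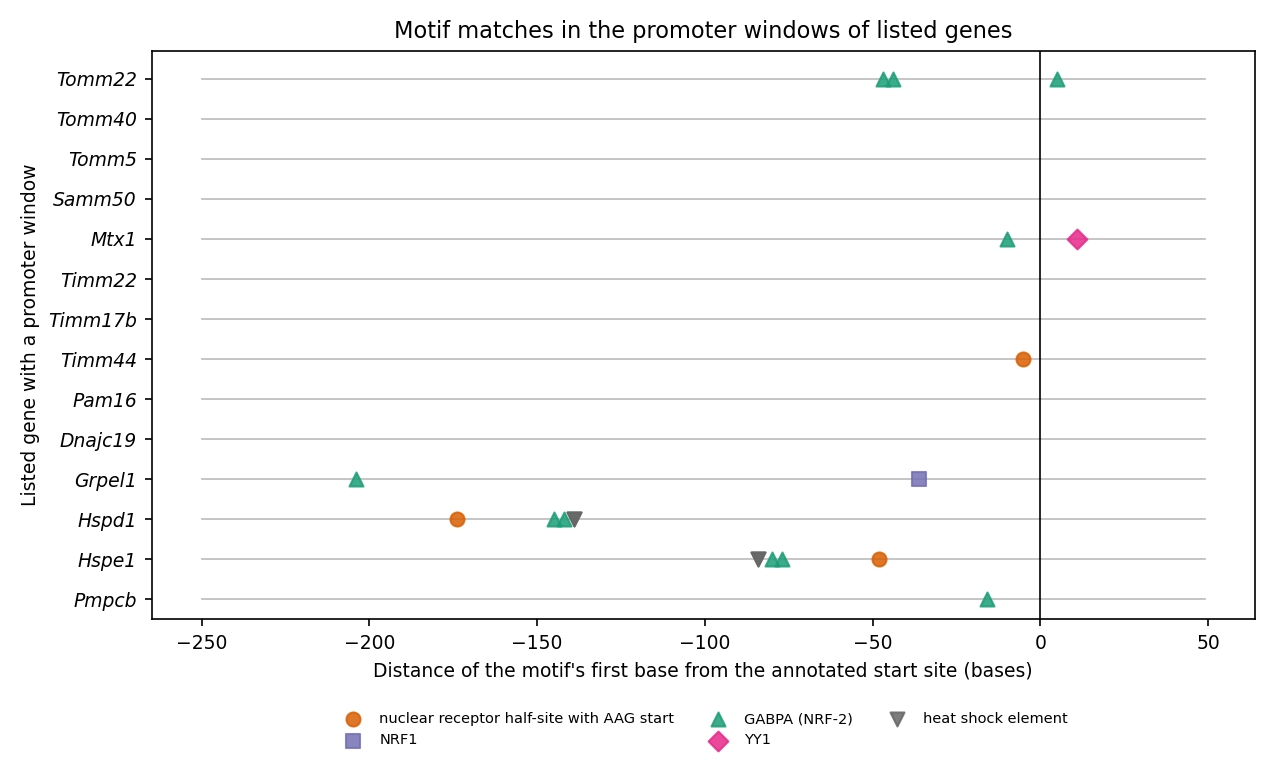
Position of each motif match (horizontal axis, bases from the annotated start site, negative upstream) in the windows of the 14 listed genes that have one (rows), with 1 symbol per motif. The matches of *Hspd1* and *Hspe1* mirror each other because their windows cover the same DNA on opposite strands, and 7 of the 14 genes have no symbol.

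In strNrip1-/- gastrocnemius, 4 of the 7 import motor genes were listed, 3 as higher and 1 as lower. *Hspa9*, which encodes mortalin, the Hsp70 of the matrix that drives import, rose by 0.53 on the log2 scale (44.7%, FDR = 1.15e-10). *Timm44*, which tethers mortalin to the TIM23 channel, rose by 0.41 (FDR = 7.99e-08). *Grpel1*, which releases ADP from mortalin and whose upstream run is printed above, rose by 0.29 (FDR = 0.000915). The Hsp70 of the motor, its tether and its exchange factor were thus higher together, with *Hspa9* ranked 78 by FDR among the 1968 genes of the list. *Pam16*, which regulates the J-protein partner of mortalin, fell by 30.3% (log2 fold change -0.52, FDR = 0.0455), at rank 1900 of 1968 and so close to the FDR threshold.

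Outside the motor, 3 further genes rose in gastrocnemius. *Samm50*, the core of the SAM complex that inserts barrel proteins such as the porins, rose by 0.34 (FDR = 0.00313). *Pmpcb*, the catalytic subunit of the processing peptidase, rose by 0.32 (FDR = 0.000862). *Timm21*, a TIM23 subunit that contacts the TOM complex and respiratory chain enzymes, rose by 0.31 (FDR = 0.0244). None of the 10 TOM genes, the 8 genes of the small TIM and disulfide relay group, the 2 TIM22 genes or the 2 chaperonin genes was listed in this muscle. The 7 listed genes were 17.9% of the 39, against 8.73% of all protein-coding genes, and the 6 higher genes were 15.4%, against 4.68% listed as higher. The median log2 fold change of the 7 was 0.32, beside 0.30 over the list, and their median absolute change was 0.34, beside 0.53.

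Markers of other cell types and of fibre types were also listed in this muscle. Over all protein-coding genes, 4.68% were listed as higher there and 4.05% as lower. A single gene of 12 is 8.33%, so the smaller counts below rest on few genes. Of 12 cardiomyocyte markers, 9 were higher by 0.51 to 1.99, with a median of 1.70, led by *Myh6* at 1.99 and *Ryr2* at 1.93. The defining cardiac factor *Nkx2-5* was among them at 1.87. Of 12 slow fibre markers 3 were higher, *Myl2* and *Pln* of which are also on the cardiomyocyte list, and of 12 fast fibre markers 1 was higher and 2 were lower. Of 12 fibroblast and matrix markers 5 were lower, between -1.11 and -0.40. Of 10 endothelial markers 3 were higher, by 0.30 to 0.78, and of 12 immune markers *S100a9* (3.55) and *S100a8* (3.35) were higher. In whole tissue, fewer cells of a type and less RNA per cell cannot be told apart, and the part of these markers in the import gene changes was not tested.

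In sham hearts labelled csNrip1-/-, 4 of the 10 genes grouped as TOM complex and receptors, the outer membrane entry gate, were lower than in control sham hearts. This group includes *Tomm34*, which is not counted as a translocase subunit in the closing section. *Tomm40*, the channel itself, fell by 0.40 on the log2 scale (FDR = 2.47e-12) and ranked 125 by FDR among 2070 genes. *Tomm40l*, a paralog of the channel, fell by 31.5% (log2 fold change -0.55, FDR = 1.82e-08), a larger absolute change than 75.0% of the list. *Tomm5*, a small subunit of the complex, fell by 0.37 (FDR = 3.63e-06). Channel, paralog and small subunit were thus lower together, along with the central receptor *Tomm22*, which fell by 0.30 (FDR = 0.00113). The other receptors, *Tomm20* and *Tomm70a*, and the small subunits *Tomm6* and *Tomm7* were not listed, nor were *Tomm20l* and *Tomm34*.

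The other 3 listed genes of the sham hearts came from 3 further roles. *Hspe1*, which encodes the Hsp10 lid of the chaperonin, fell by 0.34 (FDR = 5.67e-05), while its partner *Hspd1* was not listed. *Timm22*, the channel that inserts carrier proteins into the inner membrane, fell by 0.36 (FDR = 0.00679). *Mtx1*, a metaxin of the SAM complex, fell by 0.29 (FDR = 0.0148). No import motor, TIM23 or peptidase gene was listed in this comparison. The 7 genes were 17.9% of the 39, against 9.23% of all protein-coding genes listed and 4.34% listed as lower. Their median log2 fold change was -0.36, beside 0.28 over all genes of the list, and their median absolute change was 0.36, beside 0.40. Among markers, 4 of 12 for cardiomyocytes were lower, between -0.45 and -0.27, 5 of 12 for fibroblasts and matrix were lower and 1 was higher, 2 of 10 for endothelium were lower, and 2 of 12 for immune cells were higher and 1 was lower. Of 12 slow fibre markers 1 was higher and 2 were lower. The higher gene was *Myh7*, the slow myosin of muscle and fetal heart, at 2.33 (FDR = 9.70e-18), while *Myh6*, the adult cardiac myosin, was at -0.36. The part of all these genes in the import gene changes was not tested. *Nkx2-5*, whose promoter drives Cre in this line, was 1 of the lower cardiomyocyte genes at -0.45 (FDR = 6.76e-11). In TAC/MI hearts labelled csNrip1-/- it was also lower than in control TAC/MI hearts, at -0.59 (FDR = 7.40e-19).

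**Figure D3:**
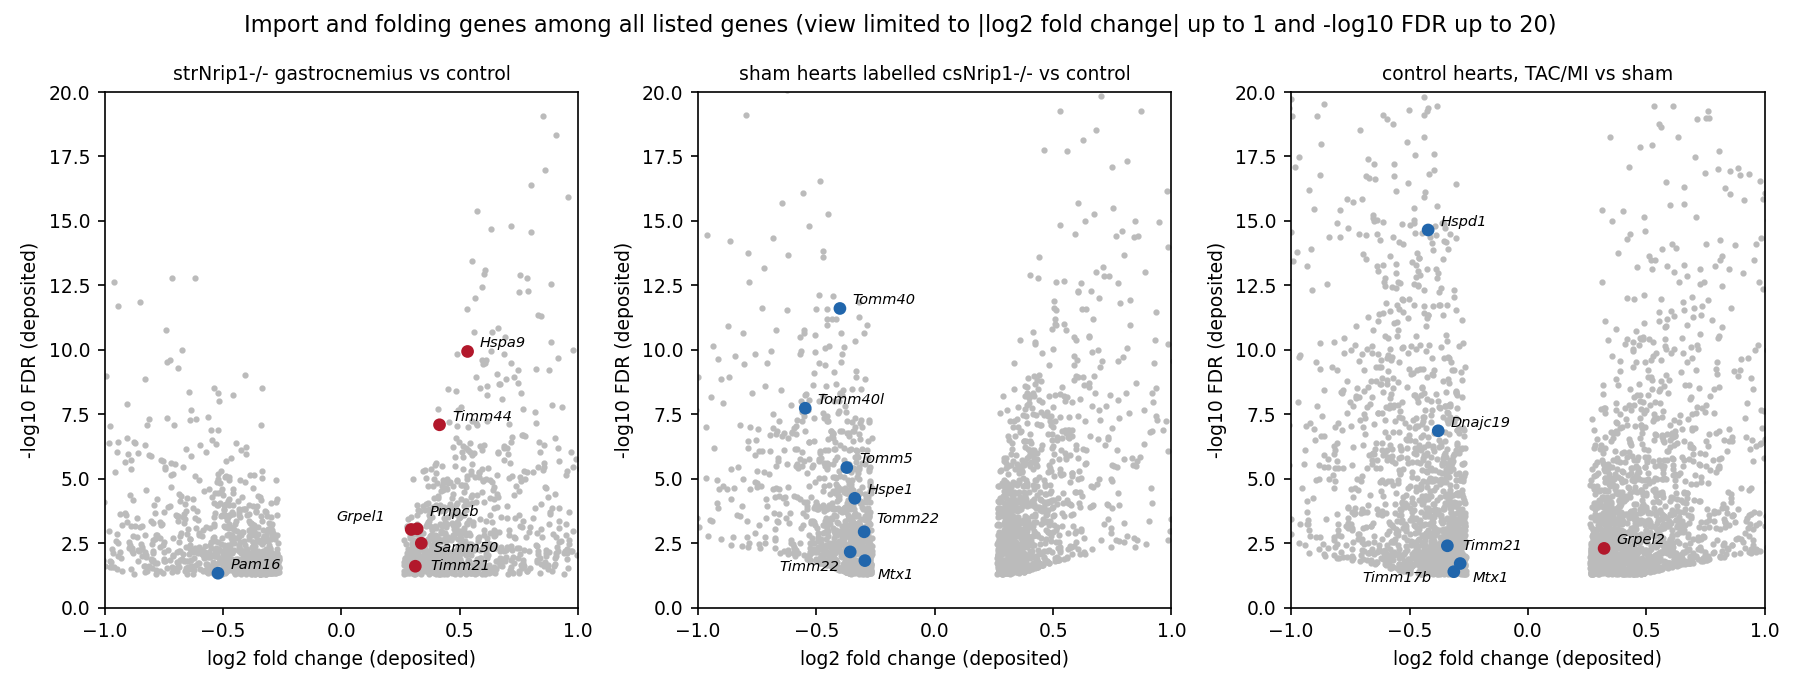
Deposited log2 fold change (horizontal axis) against -log10 FDR (vertical axis) for all listed genes (grey) and for import and folding genes (red higher, blue lower, named), with axes limited to 1 in absolute log2 fold change and to 20. *Tomm40* at an FDR of 2.47e-12 and *Hspd1* at 2.24e-15 stand highest in the heart panels, and the gap around 0 is the 1.2-fold minimum of the lists.

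After TAC/MI in control hearts, 2 of the 5 TIM23 genes, 1 of the 2 chaperonin genes, 1 of the 3 SAM genes and 1 of the 7 import motor genes were lower than after sham surgery, and 1 further motor gene was higher. *Hspd1*, which encodes the Hsp60 chaperonin, fell by 25.3% (log2 fold change -0.42, FDR = 2.24e-15). *Dnajc19*, the J-protein partner of mortalin whose loss in humans causes a dilated cardiomyopathy, fell by 0.38 (FDR = 1.37e-07). *Timm21* fell by 0.34 (FDR = 0.00392), and *Timm17b*, a structural subunit of the TIM23 channel, fell by 0.31 (FDR = 0.0397). The TIM23 subunits and the J-protein act on the presequence route, and *Mtx1* of the SAM complex fell by 0.29 (FDR = 0.0192). *Grpel2*, the second nucleotide exchange factor for mortalin, was the 1 higher gene, at 0.32 (FDR = 0.00496). *Grpel1*, its paralog, was not listed here.

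The 6 genes were 15.4% of the 39, against 15.1% of all protein-coding genes in this longest list, so the number listed was near the background. The 5 lower genes were 12.8%, against 6.93% listed as lower. The median log2 fold change of the 6 was -0.33, beside 0.29 over the list, and their median absolute change was 0.33, beside 0.48. Fibroblast and matrix markers rose in these hearts, 10 of 12 by 0.36 to 3.21 with a median of 1.32. Cardiomyocyte markers fell, 5 of 12 between -0.79 and -0.48, and 4 of 12 immune markers were higher by 0.38 to 0.56. Of 12 slow fibre markers 4 were higher and 5 were lower, with *Myh7* at 3.54 (FDR = 2.36e-41). The infarcted apex had been removed, and a change in cell make-up cannot be told apart from a change within cells. The part of these markers in the import gene changes was not tested.

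No import or folding gene was listed in the other 3 comparisons. In strNrip1-/- hearts 0 of 39 were listed, against 1.31% of all protein-coding genes, and in soleus 0 of 39, against 2.6%. These were the shortest lists, with 291 rows for heart and 589 for soleus. In TAC/MI hearts labelled csNrip1-/- 0 of 39 were listed, against 7.89%, in a list of 1792 rows. That list is of similar length to the gastrocnemius list of 1968 rows, which held 7 of these genes. Nuclear respiratory chain and ATP synthase genes were listed in these TAC/MI hearts, 19 of 85 (22.4%) as higher with a median of 0.30. Of all protein-coding genes 3.58% were listed as higher there. The 3 of 78 mitochondrial ribosomal protein genes listed as higher were 3.85%, near that background. In all 3 comparisons an import gene may have changed by less than 1.2-fold, or with an FDR of 0.05 or more, and the lists would not show it.

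By role, the genes listed differed between comparisons, and these differences were not tested. The 4 listed TOM genes were all lower and all in the sham hearts. Of 7 import motor genes, 6 were listed, *Hspa9*, *Timm44*, *Grpel1* and *Pam16* in gastrocnemius and *Dnajc19* and *Grpel2* after TAC/MI. *Dnajc15* was the motor gene in no list. The chaperonin genes were each listed as lower in 1 heart comparison, *Hspe1* in the sham hearts and *Hspd1* after TAC/MI. The 8 genes of the disulfide relay and the small TIMs were in 0 lists. They are *Chchd4* of the relay and the small TIM genes *Timm8a1*, *Timm8a2*, *Timm8b*, *Timm9*, *Timm10*, *Timm10b* and *Timm13*. The small TIMs carry hydrophobic precursors across the intermembrane space. *Timm23*, the pore of its complex, *Timm50*, its receptor, and *Timm17a* were also in no list.

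Gastrocnemius and the sham hearts labelled csNrip1-/- shared 0 listed genes. With 7 of 39 listed in each, and with overlap over all genes not counted, this 0 is not read as a difference between them. *Timm21* was the 1 gene listed in gastrocnemius and after TAC/MI, at 0.31 in the first and -0.34 in the second. *Mtx1* was the 1 gene listed in the sham hearts and after TAC/MI, at -0.29 in both. The comparisons of these hearts share the control sham libraries, which stand as the reference in each, so the values for *Mtx1* are not independent. The TAC/MI hearts labelled csNrip1-/- and the control TAC/MI list share the control TAC/MI libraries. Whether a gene listed in a single comparison differed from its change in another was not tested, since unlisted genes carry no value.

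Genes that act with these complexes were counted from a fixed list of 28, which includes the porins, inner membrane insertases and cytosolic chaperones that hand over precursors. In gastrocnemius 3 were higher and 0 were lower, *Oxa1l*, the inner membrane insertase, at 0.38, *Aifm1*, which binds the disulfide relay protein CHCHD4, at 0.37, and the porin *Vdac1* at 0.28. In sham hearts labelled csNrip1-/- 5 were lower and 0 were higher, *Bcs1l* at -0.47, *Timmdc1* at -0.44, *Mtch1* at -0.29, *Agk*, a TIM22 complex subunit, at -0.28 and *Vdac2* at -0.27. After TAC/MI in control hearts 5 were lower and 2 were higher, and the largest changes were those of *Hsp90aa1*, a cytosolic chaperone, at 0.80, the matrix peptidase gene *Mipep* at -0.44 and the insertase gene *Mtch2* at -0.37. In TAC/MI hearts labelled csNrip1-/- the metaxin *Mtx3* (0.33) and the peptidase gene *Immp1l* (0.29) were higher and *Dnajc11* (-0.36) was lower. None of the 28 was listed in strNrip1-/- heart or soleus. These counts are 10.7% of the 28 in gastrocnemius and 10.7% in the TAC/MI hearts labelled csNrip1-/-, near the 8.73% and 7.89% of all protein-coding genes, 17.9% in the sham hearts against 9.23%, and 25.0% after TAC/MI in control hearts against 15.1%.

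Matrix folding and protease genes, which act after import, were higher in gastrocnemius. There 11 of 19 (57.9%) rose and 0 fell, against 4.68% of all protein-coding genes listed as higher, with a median of 0.48, led by the protease chaperone *Clpx* at 0.58, the Hsp90 of the matrix *Trap1* at 0.55 and the protease *Htra2* at 0.52. In sham hearts labelled csNrip1-/- *Clpx* was higher at 0.43 and *Dnaja3*, a J-protein, was lower at -0.31, so that 10.5% were listed, near the background of 9.23%. After TAC/MI in control hearts 4 of 19 (21.1%) were lower, against 6.93% of all protein-coding genes, *Oma1* at -0.44, *Lrpprc* at -0.43, *Clpp* at -0.34 and *Clpx* at -0.28. *Clpx* was thus higher in the sham hearts in which *Hspe1* and 4 of 10 TOM genes were lower. Of the nuclear respiratory chain and ATP synthase genes, 50 of 85 (58.8%) were higher in gastrocnemius with a median of 0.39, beside 6 of 39 import and folding genes. In the sham hearts 6 of 85 respiratory chain genes (7.06%) were lower, beside 7 of 39 import genes and 18 of 78 mitochondrial ribosomal protein genes (23.1%, median -0.37). After TAC/MI 54 of 85 respiratory chain genes (63.5%) were lower with a median of -0.40, as were 19 of 78 ribosomal protein genes. These shares were set side by side without a test of their difference.

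**Figure D4:**
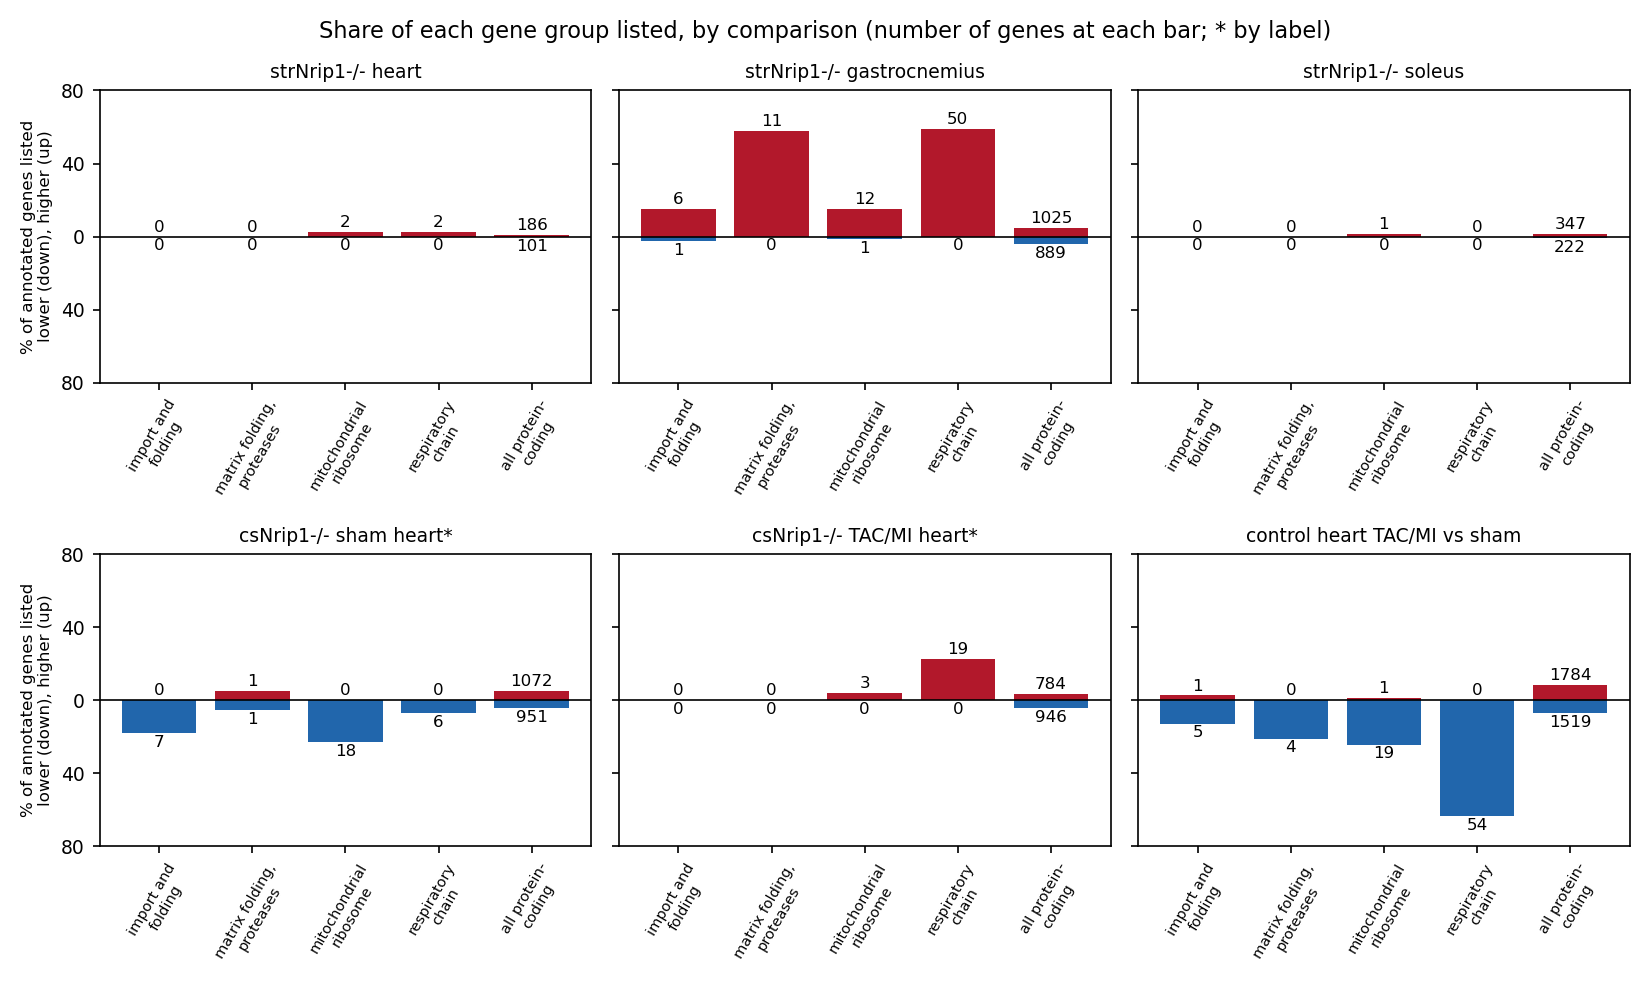
Share of annotated genes of 5 groups listed as higher (red, upward) or lower (blue, downward) in each comparison, in percent, with the number of genes at each bar; an asterisk marks groups named by their label. Import and folding genes reach 15.4% higher in gastrocnemius, below the 58.8% of respiratory chain genes, and 17.9% lower in the sham hearts, above the 7.06% of respiratory chain genes.

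Regulators and targets of the mitochondrial and integrated stress responses, known to be induced when import or folding is disturbed, were counted from a list of 12. *Atf5*, a transcription factor of the mitochondrial unfolded protein response, was higher in gastrocnemius (0.49) and soleus (0.53), lower in sham hearts labelled csNrip1-/- (-0.33) and higher after TAC/MI in control hearts (0.44). It was the 1 gene of the 12 listed in each muscle, a share of 8.33%. Of all protein-coding genes 8.73% were listed in gastrocnemius, near that share, and 2.6% in soleus. In the sham hearts labelled csNrip1-/- the cytosolic chaperone gene *Hsph1* was the other listed gene, at -0.68. There 2 of the 12 (16.7%) were listed, against 9.23% of all protein-coding genes. After TAC/MI in control hearts 6 of the 12 were higher and 1 was lower, where 8.14% of all protein-coding genes were higher and 6.93% were lower, with the stress hormone *Gdf15* at 3.38, *Chac1* at -0.85 and the cytosolic Hsp70 gene *Hspa1a* at 0.76 the largest changes. In TAC/MI hearts labelled csNrip1-/- *Gdf15* (-0.76), *Hspa1a* (-0.34) and *Atf4* (-0.32) were lower and *Chac1* (0.82) was higher, 4 of the 12 (33.3%) against 7.89% of all protein-coding genes. None of the 12 was listed in strNrip1-/- heart. In soleus *Atf5* was listed and no import gene was.

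Positions and neighbours bear on how reads could be assigned to these genes. *Hspd1* (chr1:55077835-55088243, - strand) and *Hspe1* (chr1:55088132-55091307, + strand) stand head to head, with 111 bases between annotated starts, and overlap in their first exons. They were not listed in the same comparison. *Mtx1* (chr3:89209081-89227088, - strand) overlaps *Thbs3* on the opposite strand, which was higher after TAC/MI in control hearts (0.47, FDR = 0.0160) where *Mtx1* was lower. *Tomm40l* (chr1:171216011-171222514, - strand) overlaps *Nr1i3* on the opposite strand, which was in no list. *Pam16* (chr16:4616464-4624988, - strand) overlaps *Glis2*, which was not listed in gastrocnemius, and *Dnajc19* (chr3:34056020-34081321, - strand) overlaps *Fxr1*, which was not listed after TAC/MI in control hearts. *Tomm40* (chr7:19701313-19715438, - strand) overlaps the antisense gene *Gm20512*, which was in no list. The library kit is not stated to keep strand, so reads from the shared bases of opposite genes cannot be told apart.

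Near-identical copies, identical in 90% or more of the bases across 50% or more of the copy, were found elsewhere in the genome for 9 of the 18 listed genes. *Hspd1* had 7 and *Hspe1* had 5, each with a closest identity of 99.0%, and the value of either gene is uncertain to the extent that reads were divided with them. *Pam16* had 1, *Gm9803*, with 100% identity, *Dnajc19* had 1 with 98.9%, and *Hspa9* had 1 with 92.1%. None of these copies was in any of the 6 lists. *Tomm40*, *Tomm5*, *Timm22*, *Timm44*, *Samm50*, *Pmpcb*, *Grpel1* and *Mtx1* had no such copy, and the single match of *Tomm40l* was *Nr1i3*, which overlaps it in the same DNA.

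The import and folding genes are short. Their median coding length was 516 bases, against 1176 bases for all protein-coding genes. The 7 genes lower in sham hearts labelled csNrip1-/- had a median coding length of 582 bases, against 1252.5 bases for all genes listed as lower there, and a median transcript length of 1617 bases against 2778. The 6 genes higher in gastrocnemius were longer, with a median coding length of 1381.5 bases, against 1440 for all genes listed as higher. GC content was 51.7% against 53.0% in the first set and 47.4% against 52.4% in the second. The part of length or GC content in which genes were listed was not tested.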

How the data were processed

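For 32 samples in 10 groups, the authors quantified GRCm38 transcripts with Salmon 1.3.0. Values were summed per gene and fitted with DESeq2 1.36.0, versions per the submitters' processing notes. The annotation release is not given in the sources used here. The deposited log2 values are fold changes that the authors shrank with ashr. The deposited p-values are adjusted for false discovery rate by the authors. These are the columns of the authors' own comparisons and the sole measurements used here. Only genes at FDR below 0.05 and at least 1.2-fold were kept in each list. Shrinkage pulls uncertain changes toward 0, and the depth per sample is unknown.

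Groups came from the sample labels. Genes were selected by symbol, and a repeated symbol was represented by its row of lowest FDR. All listed import and folding genes were named. From the lists of interacting, matrix folding and stress response genes, at least the 3 largest changes were named, or all where at most 5 were listed. Only some cell type and fibre markers were named, and the others were counted. Respiratory chain and mitochondrial ribosomal protein genes were counted without names. The genes and lists were chosen with earlier results of these data known. No test was run here. Positions came from GENCODE vM21, promoters from RefSeq (GRCm38.p6) and copies from blastn 2.17.0 (hits of at least 150 bases). Python 3.11.15 and pandas 2.3.3 were used, and the counting code was tested on simulated lists. Alternatives were a 1.5-fold minimum, an FDR below 0.01, translocase subunits alone and the other row of repeated symbols.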

Additional observations from a re-analysis of the deposited data

How the results depend on the processing

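At a minimum of 1.5-fold, 0 import and folding genes were left in gastrocnemius, in sham hearts labelled csNrip1-/- and after TAC/MI in control hearts, since their changes all lie under that size. With translocase subunits alone, without the motor, chaperonin, peptidase and *Tomm34*, 2 genes were left in gastrocnemius (*Samm50* and *Timm21*) and 3 after TAC/MI in control hearts (*Mtx1*, *Timm17b* and *Timm21*), against 6 in the sham hearts. At an FDR below 0.01, 5, 6 and 4 genes were left in gastrocnemius, in the sham hearts and after TAC/MI. *Pam16* and *Timm21* then left the gastrocnemius list, *Mtx1* the sham list, and *Mtx1* and *Timm17b* the TAC/MI list. With so few genes left, 0 were shared between comparisons. Overlap over all genes was not counted, so no difference is read from this. The choice of row for repeated symbols changed no count, and the 3 comparisons with 0 genes kept 0 under the alternatives. No paired analysis was possible because the lists hold no values per sample, and leaving out single replicates was not run for the same reason. Depth limits cannot be stated, since the lists give none.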
